A study of Mus musculus with 8 samples.

Results

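Prostaglandins and leukotrienes are lipid mediators made from arachidonic acid, and 10 genes that make or sense them were followed here in bone marrow derived macrophages (BMDMs) of mice labelled Mkl1+/+ and Mkl1-/-. They are the cyclooxygenases Ptgs1 and Ptgs2, the synthases Ptges, Hpgds and Tbxas1, the leukotriene genes Alox5, Alox5ap and Lta4h, and the prostaglandin E2 receptors Ptger2 and Ptger4. They were taken by symbol from the raw count tables, which list 53735 genes, and 10 of 10 were found and passed the filter on low counts that left 14418 genes for testing. The 8 bulk RNA-seq libraries were 4 WT (Mkl1+/+, Apoe-/-) and 4 KO (Mkl1-/-, Apoe-/-), so that WT and KO alike lacked Apoe. All came from male mice 6 months old that received Ang II for 7 days by osmotic minipump, at 1.44 mg/kg per day, before their marrow was differentiated to macrophages in culture for 7 days. The Mkl1 deletion was global, and WT mice were littermates of the KO mice or came from sibling matings. Experiment 1 held WT libraries 1 and 2 and KO libraries 5 and 6, and experiment 2 held WT libraries 3 and 4 and KO libraries 7 and 8. The submitters name these experiments as batches. The labels do not say that each library is a separate culture, so p-values measure the spread between these libraries, which may be technical.

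Cyclooxygenases turn arachidonic acid, which phospholipase A2 frees from membranes, into prostaglandin H2. Ptgs1 (COX-1) is usually made at a steady level and Ptgs2 (COX-2) is induced in activated macrophages, and terminal synthases then set which prostanoid is made. In a separate branch 5-lipoxygenase (Alox5), helped by its activating protein FLAP (Alox5ap), makes leukotriene A4, which Lta4h turns into leukotriene B4, an attractant of neutrophils.

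Library totals were between 33977799 and 41584540 counts. Mkl1 itself was at 25.6 and 27.1 CPM (counts scaled to library size) in WT of experiment 1 and 26.8 and 29.6 in WT of experiment 2, against 19.5 and 20.9 and then 14.6 and 10.4 in KO. Every KO library was below every WT library, as in 6.25% of all genes, yet Mkl1 reads were far from absent in KO. Between experiments the groups did not line up by genotype. WT of experiment 1 and KO of experiment 2 were the closest pair, with 395 genes more than 2-fold apart, against 1970 between WT of both experiments and 1781 between KO of both. The labels were used as given, and whether they are right was not tested. Mkl1 was lower in KO of experiment 1, with a log2 fold change of -0.39 (edgeR adjusted p = 0.00381). In experiment 2 its value was -1.17 (edgeR adjusted p = 0.0218). In the fit of both experiments Mkl1 was at -0.78 (edgeR adjusted p = 0.0574) and was not called. Directions are given for each experiment. All 10 macrophage markers were expressed, with sums between 16612 and 36752 CPM per library in which Lyz2 was the largest part. Of the markers 3 were lower and 6 higher in KO of experiment 1, where 55.1% of all genes were called, 2 were lower and 2 higher in experiment 2, against 15.8%, and the effect differed between experiments for 7 of 10, against 41.6%. Their part in the results was not tested. Of 9 fibroblast markers, 7 were tested and all 7 were higher in KO of experiment 1. Their sum was 178 and 235 CPM in those KO libraries and between 2.18 and 12.1 CPM in the other 6, and Lum and Thy1 stayed under 1 CPM in every library.

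Sequences just upstream of 4 of these genes are shown because they belong to the cyclooxygenases and to the prostaglandin synthases Ptges and Hpgds, of which the synthases moved in opposite directions in both experiments. Each runs from 250 bases before the RefSeq start to 30 bases from it (GRCm38.p6), on the gene's own strand. Capitals mark motif letters found on either strand.
Ptgs2: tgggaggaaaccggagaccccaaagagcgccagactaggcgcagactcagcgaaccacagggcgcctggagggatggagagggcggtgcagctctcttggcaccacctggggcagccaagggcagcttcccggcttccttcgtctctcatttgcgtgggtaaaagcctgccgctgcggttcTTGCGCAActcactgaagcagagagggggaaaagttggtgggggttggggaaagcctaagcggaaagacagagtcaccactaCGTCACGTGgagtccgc
Ptgs1: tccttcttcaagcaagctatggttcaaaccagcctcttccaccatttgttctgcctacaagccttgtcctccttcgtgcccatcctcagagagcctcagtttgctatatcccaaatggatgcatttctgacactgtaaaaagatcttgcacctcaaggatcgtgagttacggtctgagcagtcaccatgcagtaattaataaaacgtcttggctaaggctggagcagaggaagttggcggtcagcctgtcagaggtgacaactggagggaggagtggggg
Ptges: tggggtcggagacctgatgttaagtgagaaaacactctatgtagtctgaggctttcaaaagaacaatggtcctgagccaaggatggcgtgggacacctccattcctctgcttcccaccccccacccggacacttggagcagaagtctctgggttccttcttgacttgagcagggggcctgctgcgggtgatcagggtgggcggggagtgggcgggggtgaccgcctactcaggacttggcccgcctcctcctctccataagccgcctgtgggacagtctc
Hpgds: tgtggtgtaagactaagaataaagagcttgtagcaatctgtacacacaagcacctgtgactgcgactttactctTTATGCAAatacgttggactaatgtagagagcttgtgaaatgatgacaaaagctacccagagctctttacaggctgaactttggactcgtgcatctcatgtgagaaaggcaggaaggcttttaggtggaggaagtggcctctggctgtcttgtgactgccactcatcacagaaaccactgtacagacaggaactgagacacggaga
The windows lie at chr1:150099781-150100060 on the plus strand for Ptgs2, chr2:36230176-36230455 on the plus strand for Ptgs1, chr2:30903268-30903547 on the minus strand for Ptges and chr6:65144701-65144980 on the minus strand for Hpgds. A set of 7 motifs was searched on both strands of the windows, extended by 20 bases downstream, which RefSeq gave for 9 of the 10 genes (Alox5ap had no entry). The Ptgs2 window held the C/EBP palindrome TTGCNNAA, as TTGCGCAA at position -69, and downstream of the start the shorter CRE core, CGTCA, at position 14 that shares its last 2 bases with an E-box, CACGTG, at position 17. Among all 32851 promoter windows 10.8% held the C/EBP letters, 20.8% CGTCA and 7.15% the E-box. Hpgds held a C/EBP match on the opposite strand, read as TTATGCAA at position -176, and Ptger2 held one at position 40. Tbxas1 held TATAAA, found in 13.6% of all windows. No match to the full CRE, TGACGTCA (1.79% of all windows), to the kappa B consensus (4.51%) or to the CArG box bound by SRF (1.63%) was found in the 9 windows. A match is only a run of letters, and no match covers only these windows.

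KO was compared with WT within each experiment with the quasi-likelihood test of edgeR, and p-values were adjusted over all 14418 genes by the Benjamini-Hochberg method, with a threshold of 0.05. In experiment 1, 9 of the 10 genes passed, 4 lower (Ptgs2, Ptges, Ptger2, Ptger4) and 5 higher in KO (Ptgs1, Hpgds, Tbxas1, Alox5, Lta4h), where 55.1% of all genes passed, 28.1% lower and 27.0% higher. In experiment 2, 4 of 10 passed, Ptgs2 and Ptges lower and Hpgds and Ptger2 higher, against 15.8% of all genes, 8.29% lower and 7.52% higher. Ptgs2 and Ptges were thus lower in both experiments, as were 2.25% of all genes, Hpgds was higher in both, as were 2.13%, and Ptger2 was lower in experiment 1 and higher in experiment 2, as were 3.11%. None was called with the opposite course in these fits, as 3.23% of all genes were, so 1 of 10 was called in opposite directions between experiments against 6.34% of all genes. Alox5ap passed in neither. With both experiments in one fit and the experiment as an additive term, Ptgs2 and Ptges were lower and Hpgds and Tbxas1 higher in KO, 4 of 10 genes against 7.12% of all genes, 3.41% lower and 3.72% higher. The median log2 fold change of the 10 genes was 0.19 in experiment 1, 0.03 in experiment 2 and 0.36 in the fit of both, against 0.01, 0.01 and 0.00 for all genes. A test of the difference between the 2 experiments' effects passed for Ptgs1, Ptges, Ptger2 and Ptger4, 4 of 10, where 41.6% of all genes passed. Ptgs2 was the 1 gene of the 10 with all 4 KO libraries below all 4 WT libraries, a separation seen in 6.25% of all genes, and none had all 4 above, against 6.46%. Genotypes that lie apart within an experiment, 2 libraries against 2, are described below without the share of all genes, which was not counted.

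**Figure D1:**
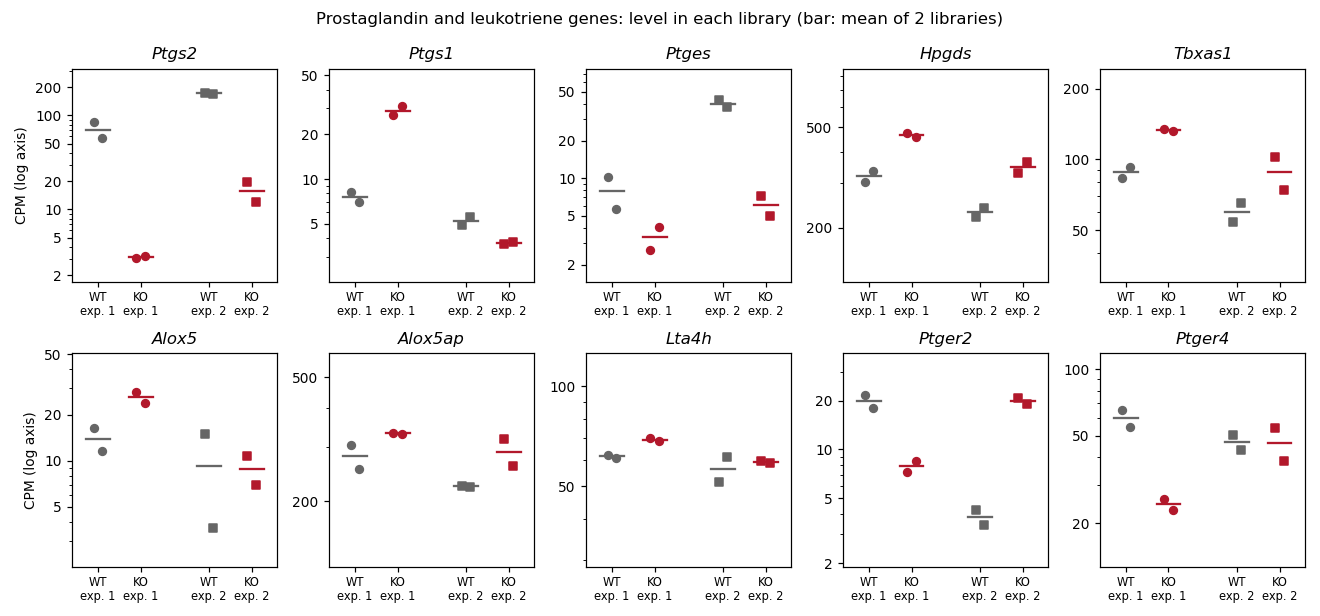
Level of each of the 10 genes in each library, in CPM on a log axis. Circles are libraries of experiment 1 and squares of experiment 2, grey for WT and red for KO, and each bar is the mean of 2 libraries. Ptgs2 sits between 3.06 and 19.5 CPM in KO and between 57.1 and 175 CPM in WT.

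**Figure D2:**
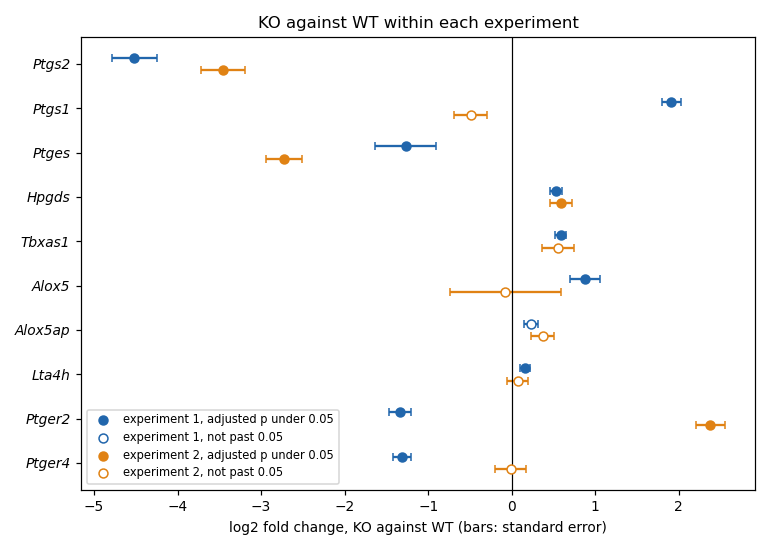
Log2 fold change of KO against WT for each gene, with experiment 1 in blue and experiment 2 in orange. Bars are standard errors, and filled points passed an edgeR adjusted p of 0.05. Ptgs2 and Ptges lie left of 0 and Hpgds right of 0 in both experiments, and Ptger2 lies on opposite sides.

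Of the 10 genes Ptgs2 showed the widest gap between genotypes. Its level was 84.6 and 57.1 CPM in WT of experiment 1 and 3.06 and 3.17 CPM in KO, and 175 and 170 CPM in WT of experiment 2 and 19.5 and 11.9 CPM in KO. Every KO library was below every WT library, and the WT mean was 22.7 times the KO mean in experiment 1 and 11.0 times in experiment 2. Over all libraries WT was at 122 ± 59.9 CPM and KO at 9.41 ± 7.91 CPM (SD, n = 4 each). The log2 fold change was -4.52 (standard error 0.27, edgeR adjusted p = 0.000433) in experiment 1 and -3.46 (standard error 0.26, edgeR adjusted p = 0.00609) in experiment 2. The 2 effects did not pass a test of their difference, 1.05 on the log2 scale (standard error 0.36, edgeR adjusted p = 0.0527), though 5 of 13 alternatives passed it, DESeq2 among them, with edgeR or DESeq2 adjusted p between 3.71e-08 and 0.151. In experiment 1 the call was lost when KO library 5 or KO library 6 was left out, with edgeR adjusted p = 0.0631 and 0.0573 and log2 fold changes of -4.49 and -4.55. Ptgs2 covers chr1:150100031-150108227 on the plus strand with 11 exons (GRCm38).

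Ptgs1, the steady isoform, took another course. In experiment 1 it was at 8.19 and 6.98 CPM in WT and 26.8 and 30.9 CPM in KO, and in experiment 2 at 4.93 and 5.52 CPM in WT and 3.66 and 3.77 CPM in KO. KO was 3.80 times WT in experiment 1, with no overlap, and 0.710 times WT in experiment 2. The log2 fold change was 1.91 (standard error 0.12, edgeR adjusted p = 8.48e-06) in experiment 1 and -0.49 (standard error 0.20, edgeR adjusted p = 0.154) in experiment 2, and the effects differed by -2.42 (standard error 0.19, edgeR adjusted p = 0.000287). In 1 fit of the 4 groups the lower level in experiment 2 passed the threshold (edgeR adjusted p = 0.0316). The 2 libraries with high Ptgs1 are also those with 178 and 235 CPM of summed fibroblast markers, and the part of such cells in the Ptgs1 level was not tested. In bulk RNA a change in the number of cells of a type and a change in RNA per cell cannot be told apart. Ptgs1 covers chr2:36230426-36252272 on the plus strand with 11 exons, of which 148 bases overlap an annotated transcript on the other strand. Whether counting used the strand is not given in the sources used here.

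Per kilobase of exon, which allows genes to be compared, Ptgs2 was above Ptgs1 in all 4 WT libraries, at 8.76 and 6.93 times in experiment 1 and 30.2 and 26.1 times in experiment 2. In KO of experiment 2 the ratio was 4.52 and 2.68. In KO of experiment 1 it was 0.0966 and 0.0872, so Ptgs1 was the more abundant cyclooxygenase mRNA in those 2 libraries. Every KO ratio was below every WT ratio.

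**Figure D3:**
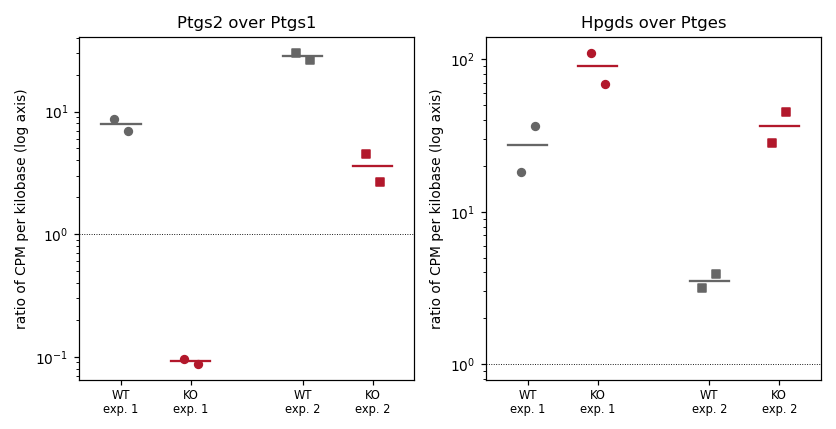
Ratio of CPM per kilobase of exon within each library on a log axis, Ptgs2 over Ptgs1 on the left and Hpgds over Ptges on the right, with circles for experiment 1, squares for experiment 2, grey for WT and red for KO. Bars are means of 2 libraries, and the dotted line marks a ratio of 1, which only the Ptgs2 over Ptgs1 ratio of KO in experiment 1 falls below.

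Ptges, the inducible microsomal synthase that makes prostaglandin E2, was lower in KO in both experiments. It was at 10.2 and 5.66 CPM in WT and 2.62 and 4.02 CPM in KO of experiment 1, and at 42.7 and 37.4 CPM in WT and 7.17 and 4.94 CPM in KO of experiment 2. Genotypes did not overlap within an experiment, but KO library 7 of experiment 2 was above WT library 2 of experiment 1. WT was 2.39 times KO in experiment 1 (log2 fold change -1.27, standard error 0.36, edgeR adjusted p = 0.0358) and 6.62 times KO in experiment 2 (-2.73, standard error 0.21, edgeR adjusted p = 0.00565). The effects differed by -1.47 (standard error 0.45, edgeR adjusted p = 0.0346), a call lost in 5 of the 8 fits without a library, with values between -1.93 and -1.11 and adjusted p of up to 0.151. The call of experiment 1 was lost without WT library 1, KO library 5 or KO library 6 (edgeR adjusted p = 0.0647, 0.213 and 0.0849), and the first of these moved the log2 fold change to -0.77. In the fit of both experiments Ptges was at -2.0 (standard error 0.38, edgeR adjusted p = 0.0284), a call that 5 of the 8 fits without a library lost, those without WT library 1, 3 or 4 or KO library 5 or 7, with adjusted p of up to 0.104. Ptges covers chr2:30889471-30929863 on the minus strand, and its RefSeq start at 30903297 lies inside that span.

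Hpgds, the hematopoietic prostaglandin D synthase, was higher in KO in both experiments. WT was at 304 and 336 CPM and KO at 474 and 456 CPM in experiment 1, and WT at 219 and 240 CPM and KO at 329 and 364 CPM in experiment 2. Genotypes did not overlap within an experiment. KO was 1.45 times WT in experiment 1 (log2 fold change 0.53, standard error 0.07, edgeR adjusted p = 0.000389) and 1.51 times WT in experiment 2 (0.59, standard error 0.13, edgeR adjusted p = 0.0395). In the fit of both it was at 0.57 (standard error 0.09, edgeR adjusted p = 0.0139). The call of experiment 2 was lost without any 1 of its 4 libraries, with log2 fold changes between 0.52 and 0.66 and edgeR adjusted p between 0.0837 and 0.174, and that of the fit of both was lost without WT library 1 or KO library 5 (edgeR adjusted p = 0.0683 and 0.0614). Mast cells also express Hpgds, and the summed level of 8 mast cell or basophil markers was 1.41 and 2.14 CPM in WT and 4.73 and 5.97 CPM in KO of experiment 1, then 10.5 and 12.1 CPM in WT and 2.25 and 3.68 CPM in KO of experiment 2. Of these 8 markers 3 were at 0 in every library and Kit and Hdc made up most of the sum. Mcpt8, a basophil protease, had 43 and 51 counts in the KO libraries of experiment 1 and 0 in the other 6. The part of such cells in the Hpgds level was not tested. Hpgds covers chr6:65117293-65144908 on the minus strand. The ratio of Hpgds to Ptges per kilobase was 18.2, 36.3, 3.14 and 3.92 in WT libraries 1 to 4 and 111, 69.4, 28.1 and 45.0 in KO libraries 5 to 8. That the ratio sets the genotypes apart within each experiment follows from the levels of both genes and is no further result. Ptgds, the lipocalin type of prostaglandin D synthase, had 1 count in the 8 libraries together.

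Tbxas1 makes thromboxane A2. It was at 83.6 and 92.5 CPM in WT and 135 and 132 CPM in KO of experiment 1, and at 54.3 and 65.6 CPM in WT and 102 and 74.2 CPM in KO of experiment 2. KO was above WT within both experiments, 1.52 times (log2 fold change 0.59, standard error 0.07, edgeR adjusted p = 0.000159) and 1.47 times (0.56, standard error 0.19, edgeR adjusted p = 0.111). In experiment 2 the value ran from 0.31 without KO library 7 to 0.77 without KO library 8, and 1 fit of the 4 groups passed the threshold (edgeR adjusted p = 0.0315). The fit of both gave 0.58 (standard error 0.12, edgeR adjusted p = 0.0353), a call that 7 of the 8 fits without a library lost, all but that without KO library 8, with adjusted p of up to 0.114. Platelets are rich in this enzyme. Of 7 platelet or megakaryocyte markers 6 stayed under 1 CPM in every library, and the sum of the 7 was 13.0 and 15.8 CPM in WT and 27.2 and 37.6 CPM in KO of experiment 1, then 72.3 and 95.1 CPM in WT and 24.4 and 10.4 CPM in KO of experiment 2. Nearly all of that sum was Pf4. Itga2b, the other of these markers that could be tested, was between 0.137 and 0.450 CPM, and the part of platelets in the Tbxas1 level was not tested. Tbxas1 covers chr6:38875404-39084585 on the plus strand.

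Of the 3 leukotriene genes, edgeR called Alox5 and Lta4h higher in KO of experiment 1, where 27.0% of all genes were. Alox5, which carries out the first steps, was at 16.4 and 11.6 CPM in WT and 28.1 and 24.1 CPM in KO of experiment 1, a KO level 1.86 times WT (log2 fold change 0.88, standard error 0.18, edgeR adjusted p = 0.00908). That call was lost without KO library 5 (edgeR adjusted p = 0.0717) and in 1 fit of the 4 groups (edgeR adjusted p = 0.215). In experiment 2 it was at 14.9 and 3.65 CPM in WT and 10.7 and 6.91 CPM in KO, so that both KO libraries lay between the WT libraries (log2 fold change -0.08, standard error 0.67, edgeR adjusted p = 0.951). Without WT library 3 that value was 1.27 and without WT library 4 it was -0.76, neither past the threshold. Alox5ap, the most abundant of the 10 genes per kilobase in every group, at 157 to 233 CPM per kilobase, was at 304 and 255 CPM in WT and 331 and 330 CPM in KO of experiment 1, and at 224 and 222 CPM in WT and 316 and 261 CPM in KO of experiment 2. KO lay above WT within both experiments, with log2 fold changes of 0.23 (standard error 0.09, edgeR adjusted p = 0.0525) and 0.37 (standard error 0.14, edgeR adjusted p = 0.139) that missed the threshold. In experiment 1 it was passed in 5 of 10 alternatives, among them DESeq2 (adjusted p = 0.0497) and upper-quartile scaling (edgeR adjusted p = 0.0107), and the value was 0.37 without WT library 1 and 0.11 without WT library 2. Lta4h had the narrowest spread, from 51.6 to 69.8 CPM over the 8 libraries. It was at 62.4 and 60.8 CPM in WT and 69.8 and 68.6 CPM in KO of experiment 1 (log2 fold change 0.16, standard error 0.06, edgeR adjusted p = 0.0490), a call lost in 8 of its 10 alternatives, and at 51.6 and 61.3 CPM in WT and 59.7 and 58.8 CPM in KO of experiment 2 (0.07, edgeR adjusted p = 0.724). The genes cover chr6:116410077-116461178 (Alox5, minus strand), chr5:149264767-149288153 (Alox5ap, plus strand) and chr10:93453411-93484875 (Lta4h, plus strand).

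The receptors Ptger2 (EP2) and Ptger4 (EP4) both raise cyclic AMP when they bind prostaglandin E2. Ptger2 was at 21.6 and 17.9 CPM in WT and 7.25 and 8.52 CPM in KO of experiment 1, but at 4.22 and 3.42 CPM in WT and 20.7 and 19.1 CPM in KO of experiment 2. The genotypes were apart in both experiments and in opposite order, with WT 2.51 times KO in experiment 1 and KO 5.21 times WT in experiment 2. The log2 fold changes were -1.34 (standard error 0.13, edgeR adjusted p = 8.86e-05) and 2.38 (standard error 0.17, edgeR adjusted p = 0.00501), and they differed by 3.70 (standard error 0.22, edgeR adjusted p = 0.000136). Each of these calls held in every alternative run. In the fit of both, Ptger2 was at 0.51 (standard error 0.82, edgeR adjusted p = 0.757). WT of experiment 1 and KO of experiment 2, the groups with high Ptger2, are the pair that was closest over all genes.

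Ptger4 was at 65.4 and 55.0 CPM in WT and 25.9 and 22.9 CPM in KO of experiment 1, and at 50.3 and 43.2 CPM in WT and 54.1 and 38.5 CPM in KO of experiment 2. The KO libraries of experiment 1 were below the other 6. The log2 fold change was -1.31 (standard error 0.10, edgeR adjusted p = 6.21e-05) in experiment 1 and -0.01 (standard error 0.19, edgeR adjusted p = 0.969) in experiment 2, and the effects differed by 1.29 (standard error 0.25, edgeR adjusted p = 0.00576). Per kilobase Ptger4 was above Ptger2 in all 4 groups, at 9.05 against 3.81 CPM per kilobase in WT of experiment 1 and 6.97 against 3.83 in KO of experiment 2. Ptger2 covers chr14:44988195-45003820 on the plus strand and Ptger4 chr15:5206661-5244187 on the minus strand. On the other strand Ptger4 shares 1015 exon bases with the annotated pseudogene Gm15937 and 82 with Ttc33, and 246 exon bases of Ptger2 overlap an annotated antisense transcript.

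WT levels also differed between the experiments. The mean of WT in experiment 2 was 2.44 times that of experiment 1 for Ptgs2, 5.04 times for Ptges and 0.193 times for Ptger2, values given without a test. Over the 8 libraries the genes whose log2 CPM tracked Ptgs2 best, among 9062 whose log2 CPM averaged 3 or more, were Tnip3 (Pearson r = 0.9985), Trim13 (r = 0.9958) and Krcc1 (r = 0.9949). Tnip3 was at 308 and 257 CPM in WT and 51.4 and 52.8 CPM in KO of experiment 1, and at 479 and 466 CPM in WT and 126 and 114 CPM in KO of experiment 2. For Alox5 they were Dcxr (r = 0.9477), Selplg (r = 0.9443) and Tifab (r = 0.933). These 8 points share 2 genotypes and 2 experiments, and the values describe these libraries.

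Beside Ptgs2 lie 2 noncoding genes. Ptgs2os, which lies just upstream of Ptgs2 on the other strand (chr1:150074873-150099963), had 5, 3, 11 and 9 counts in WT libraries 1 to 4 and 0 in each KO library, too few to be tested. A count of 0 allows up to 3 counts in a library, so the KO level is limited by depth. Ptgs2os2 (chr1:150159043-150164948, minus strand) was at 4.06 and 3.29 CPM in WT and 0.135 and 0.300 CPM in KO of experiment 1, and at 4.11 and 4.72 CPM in WT and 1.88 and 1.41 CPM in KO of experiment 2. All KO libraries were below all WT libraries, as in 6.25% of all genes. The log2 fold change was -4.05 (standard error 0.34, edgeR adjusted p = 3.3e-05) in experiment 1 and -1.42 (standard error 0.27, edgeR adjusted p = 0.0281) in experiment 2, the second a call lost without any 1 of its 4 libraries.

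Of 54 symbols listed for the rest of the pathway, 51 were in the tables and 33 were tested. In experiment 1, 10 of the 33 were lower and 8 higher in KO, and in experiment 2, 4 were lower (Mgll, Ptgir, Mgst3, Dpep2) and 1 was higher (Daglb). These 18 and 5 of 33 genes stand beside 55.1% and 15.8% of all genes called, and are near those shares. In the fit of both, 2 were lower (Abcc1, Ptgir) and none was higher by edgeR, where 491 and 536 of all 14418 genes were lower and higher. At an unadjusted p under 0.05 edgeR had 5 of the 33, and DESeq2 called 4 lower and 2 higher. The difference between experiments passed for 18 of the 33, beside 41.6% of all genes. The median log2 fold change of the 33 was -0.01 in experiment 1 and -0.05 in experiment 2, against 0.01 for all genes in each.

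**Figure D4:**
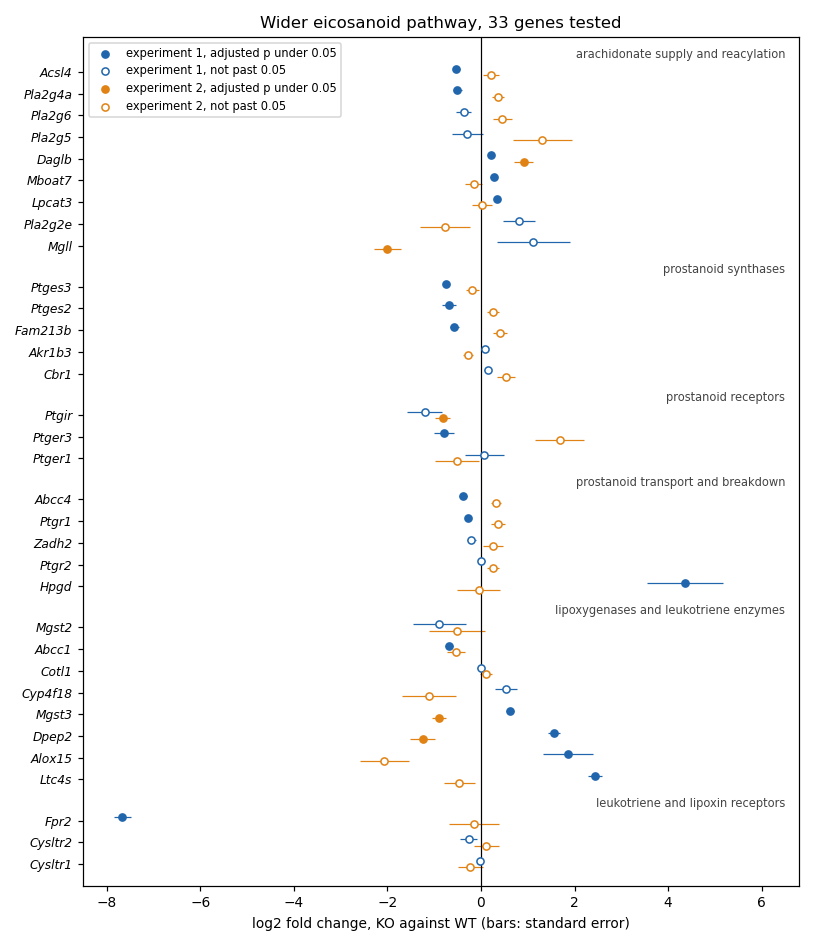
Log2 fold change of KO against WT for the 33 tested genes of the wider pathway, grouped by role, with experiment 1 in blue and experiment 2 in orange. Bars are standard errors and filled points passed an edgeR adjusted p of 0.05. More points are filled for experiment 1 (18) than for experiment 2 (5).

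Among 9 tested genes of arachidonate supply, 2 fell and 3 rose in experiment 1, and 1 fell and 1 rose in experiment 2, again beside 55.1% and 15.8% of all genes called. Pla2g4a, the cytosolic phospholipase A2 that frees arachidonic acid, was at 99.2 and 95.1 CPM in WT and 62.7 and 75.6 CPM in KO of experiment 1, and at 83.3 and 79.3 CPM in WT and 96.3 and 114 CPM in KO of experiment 2. KO was below WT in the first and above it in the second, with log2 fold changes of -0.50 (edgeR adjusted p = 0.0034) and 0.37 (edgeR adjusted p = 0.107). Daglb, a diacylglycerol lipase, was higher in KO in both, at 0.22 (edgeR adjusted p = 0.0187) and 0.92 (edgeR adjusted p = 0.0402), calls lost without WT library 1 or KO library 5 and without WT library 3 or KO library 7 or 8.

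Of the 5 other prostanoid synthases tested, 3 fell in experiment 1 (Ptges2, Ptges3 and Fam213b), where 28.1% of all genes were lower, and none passed edgeR in experiment 2, where 2 had an unadjusted p under 0.05 and DESeq2 called 0. Ptges3, the cytosolic prostaglandin E synthase also known as the cochaperone p23, was at 83.3 and 77.2 CPM in WT and 47.3 and 49.0 CPM in KO of experiment 1 and at 86.6 and 84.4 CPM in WT and 66.2 and 84.3 CPM in KO of experiment 2. Ptges2, Ptges3, Fam213b and Mgll were named after their values were seen. Of 3 other prostanoid receptors tested, Ptger3 was called lower in experiment 1 and Ptgir in experiment 2, where 28.1% and 8.29% of all genes were lower. Ptger3, another prostaglandin E2 receptor (EP3), was at 3.84 and 5.55 CPM in WT and 2.79 and 2.67 CPM in KO of experiment 1 (log2 fold change -0.79, standard error 0.21, edgeR adjusted p = 0.0143), and at 2.47 and 1.18 CPM in WT and 3.81 and 7.91 CPM in KO of experiment 2 (1.68, standard error 0.52, edgeR adjusted p = 0.0927). Its call of experiment 1 was lost without WT library 2 and in 1 fit of the 4 groups, its higher level in experiment 2 passed in 2 of 10 alternatives, DESeq2 (adjusted p = 0.00977) and that same fit, and it was named after its values were seen. Ptgir, the prostacyclin receptor, was at 21.8 and 12.4 CPM in WT and 6.17 and 8.87 CPM in KO of experiment 1, and at 28.3 and 21.9 CPM in WT and 14.5 and 14.1 CPM in KO of experiment 2. The genotypes did not overlap within an experiment. Ptgir missed the threshold in experiment 1 (log2 fold change -1.20, edgeR adjusted p = 0.0620) and passed it in experiment 2 (-0.81, edgeR adjusted p = 0.0319). In experiment 1 it passed in 4 of 10 alternatives, among them DESeq2 (adjusted p = 0.000102), with values of -0.72 without WT library 1 and -1.55 without WT library 2. The call of experiment 2 was lost without WT library 3 or KO library 7 or 8 (edgeR adjusted p of up to 0.142). The fit of both gave -1.0 (standard error 0.22, edgeR adjusted p = 0.0420), a call lost without any 1 of the 8 libraries.

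Transport and breakdown held 5 tested genes, of which 2 fell and 1 rose in experiment 1, where 55.1% of all genes were called, and none passed edgeR in experiment 2, where 2 had an unadjusted p under 0.05 and DESeq2 called 0. The riser was Hpgd, which inactivates prostaglandins, at 1.11 and 2.05 CPM in WT and 46.3 and 18.0 CPM in KO of experiment 1, and between 1.44 and 2.85 CPM in experiment 2. Its log2 fold change was 4.36 (standard error 0.82, edgeR adjusted p = 0.0325) in experiment 1, lost without WT library 1 or WT library 2, and the same 2 KO libraries carry the high fibroblast markers, whose part was not tested.

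Among 8 further lipoxygenase and leukotriene enzymes, 4 rose and 1 fell in experiment 1 and 2 fell in experiment 2, where 55.1% and 15.8% of all genes were called. Ltc4s, which makes leukotriene C4, was at 2.14 and 1.82 CPM in WT and 11.1 and 10.8 CPM in KO of experiment 1, 5.52 times WT (log2 fold change 2.45, standard error 0.15, edgeR adjusted p = 8.56e-06), and between 1.85 and 3.80 CPM in experiment 2 (-0.46, edgeR adjusted p = 0.380). The same KO libraries of experiment 1 carry the high fibroblast markers and the Mcpt8 counts, whose part was not tested. Dpep2, a dipeptidase that turns leukotriene D4 into E4, was at 8.21 and 6.60 CPM in WT and 23.4 and 20.6 CPM in KO of experiment 1, but at 19.4 and 14.5 CPM in WT and 8.66 and 5.61 CPM in KO of experiment 2. Its log2 fold changes were 1.55 (edgeR adjusted p = 3.69e-05) and -1.25 (edgeR adjusted p = 0.0388). Mgst3 had the same order, at 0.62 (edgeR adjusted p = 0.000434) and -0.89 (edgeR adjusted p = 0.0229). The call of experiment 2 was lost for Dpep2 without WT library 3 or KO library 7 or 8, and for Mgst3 without WT library 4 or KO library 7 or 8. Abcc1, a pump that exports leukotriene C4, was at 361 and 311 CPM in WT and 202 and 218 CPM in KO of experiment 1, and at 342 and 471 CPM in WT and 266 and 295 CPM in KO of experiment 2. All its KO libraries were below all WT libraries, as in 6.25% of all genes. It was the 1 gene of the 33 tested in the wider pathway that was separated so. The fit of both gave -0.61 (standard error 0.13, edgeR adjusted p = 0.0363), lost in 6 of the 8 fits without a library.

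Of the leukotriene and lipoxin receptors 3 were tested, and 1 was lower in experiment 1, where 28.1% of all genes were. Ltb4r1, the high affinity receptor for leukotriene B4, had 4, 7, 0 and 0 counts in WT libraries 1 to 4 and 11, 15, 10 and 10 counts in KO libraries 5 to 8, and was not tested. Fpr2, a formyl peptide receptor that also binds lipoxin A4, was named after its values were seen. It was at 75.1 and 62.3 CPM in WT and 0.271 and 0.400 CPM in KO of experiment 1, which rest on 10 and 16 counts, and at 48.8 and 15.7 CPM in WT and 33.2 and 25.0 CPM in KO of experiment 2. KO fell in experiment 1 (log2 fold change -7.67, standard error 0.18, edgeR adjusted p = 6.55e-07) and lay inside the WT range in experiment 2 (-0.15, edgeR adjusted p = 0.872).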

How the data were processed

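RNA-seq of 8 libraries was used. Per the labels, libraries were made with the TruSeq Stranded mRNA kit. The submitters' processing notes name STAR 2.7.0f, Subread 1.6.4, featureCounts, DESeq2 1.22.1 and GRCm38 without stating roles, and the annotation and strand setting are not given in the sources used here. The authors deposited raw counts per gene and, for each experiment, normalized counts. The deposited normalized values are a signal that equals the counts divided by a factor between 0.891 and 1.09, and were used only to check the unit. Replicate libraries differed by more than counting noise, with chi-square values of 12.5 to 81.9 per gene, and each was counted as its own sample.

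Counts were tested with edgeR 4.0.16 in R 4.3.3 (filterByExpr by genotype, TMM, quasi-likelihood F test, Benjamini-Hochberg over 14418 genes, threshold 0.05), in each experiment alone, in one fit with an experiment term and for the difference between experiments. The standard error is the log2 fold change over the square root of F. The fits were also run on simulated counts with 200 changed genes, the same spread for every gene and no difference between experiments in WT. These libraries differ from those settings, so nothing is concluded from that run about the calls given here. Levels are TMM-scaled CPM, and lengths are exon unions of GENCODE M21. Correlations used log2 CPM with a prior count of 2. Precision rests on 2 libraries per genotype and experiment. Alternatives were DESeq2 1.42.0, 2 other filters, upper-quartile scaling, an adjusted p under 0.01, 1 fit of the 4 groups, no experiment term, the mean of both effects, and each library left out.

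The genes and lists were chosen with earlier results of these data known. Mgll, Ptges2, Ptges3, Fam213b, Ptger3 and Fpr2 were named after their values were seen. Otherwise the text names all 10 genes, Mkl1, 5 chosen pathway genes and 2 noncoding neighbours, up to 12 pathway genes with the smallest p among those past the threshold in the fit of both or in both experiments alone, and 3 genes most like Ptgs2 and Alox5. Prxl2b was listed as Fam213b and Ptgr3 as Zadh2. Of the other marker lists, neutrophil markers summed to at most 1.52 CPM, dendritic cell markers to 1.48, lymphocyte markers to 0.108 and eosinophil markers to 15.2 in any library. Figures used matplotlib 3.10.9.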

Additional observations from a re-analysis of the deposited data

Results flagged for a closer look

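Leaving cell type markers aside, the effect of KO differed between experiments for 19 genes named in the report. This is by the test of the difference itself (effect in experiment 2 minus effect in experiment 1, log2 scale, edgeR quasi-likelihood, adjusted over all genes). Among the 10 prostaglandin and leukotriene genes these were Ptgs1 (-2.42, adjusted p = 0.000287), Ptges (-1.47, adjusted p = 0.0346), Ptger2 (3.70, adjusted p = 0.000136) and Ptger4 (1.29, adjusted p = 0.00576). For Ptges KO was lower in both experiments and more so in experiment 2, and that call was lost without WT library 2, 3 or 4 or KO library 6 or 8. For Ptger2 the direction turned. Mkl1 itself fell more in experiment 2 (-0.79, adjusted p = 0.0238), a call lost in 5 of the 8 fits without a library.

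In the wider pathway the effect differed for Pla2g4a (0.86, adjusted p = 0.00578), Ltc4s (-2.92, adjusted p = 0.00112), Hpgd (-4.41, adjusted p = 0.00499), Daglb (0.69, adjusted p = 0.0462), Mgst3 (-1.52, adjusted p = 0.00103), Dpep2 (-2.81, adjusted p = 0.00092) and Fpr2 (7.51, adjusted p = 0.000716), and beside Ptgs2 for Ptgs2os2 (2.62, adjusted p = 0.00408). It also differed for Ptges2 (0.92, adjusted p = 0.0112), Fam213b (0.97, adjusted p = 0.00448), Ptges3 (0.55, adjusted p = 0.0305), Mgll (-3.12, adjusted p = 0.0239) and Ptger3 (2.46, adjusted p = 0.0165), and for Tnip3 (0.46, adjusted p = 0.0425), named as most like Ptgs2. When each of the 8 libraries was left out in turn, the call was lost in 6 fits for Ptges3, 5 for Mgll, 3 for Ptger3 and 6 for Daglb. Mgst3 and Dpep2 were higher in KO in experiment 1 and lower in experiment 2. Across all genes the effect differed between experiments for 41.6%. The genes flagged here cannot be set against that share as a group. Mgll, Ptges2, Ptges3, Fam213b, Ptger3 and Fpr2 were named after their values were seen, and others by their p-values.

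One library stood apart from its group. The lowest of the 4 WT libraries for Lta4h, library 3 at 51.6 CPM, was separated from the next by 0.85 of the range of the group, above Dixon's 95% critical value for 4 samples. Chance sets apart about 1 in 20 groups, and WT and KO of every tested gene named, markers aside, were tried. The 4 WT libraries come from both experiments, and the critical value ignores that.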

How the results depend on the processing

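No paired analysis was possible because the WT and KO libraries share no replicate numbers. Of the 10 genes, values that had passed the test were tried in 242 alternatives and turned direction in none of them, but 48 lost the call. Without 1 library the number of the 10 genes called was 5 to 8 in experiment 1 (9 with all libraries; 5 without KO library 5), 3 in each case in experiment 2 (4), 1 to 4 in the fit of both (4; 1 when WT library 1 or KO library 5 was left out) and 3 to 4 for the difference between experiments (4). In the wider pathway the counts were 14 to 18 in experiment 1 (18), 0 to 4 in experiment 2 (5), 0 to 2 in the fit of both (2) and 10 to 18 for the difference (18). The 0 in experiment 2 came without KO library 7 or 8, where edgeR had 9 and 11 genes at an unadjusted p under 0.05, and the 0 in the fit of both without WT library 1, 2 or 4 or KO library 5, 6 or 7, with 3 to 5. Over all genes these fits without a library called 6349 to 7149 in experiment 1 (7948) and 3935 to 6508 for the difference (5996). The calls over all genes, 2279 in experiment 2 with all libraries, fell too without KO library 7 or 8. In the fits of both with 0 of the wider pathway they fell from 1027 to between 243 and 495. The fit of both called 630 of all genes without WT library 3 and 1100 without KO library 8.

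At an adjusted p under 0.01 the fit of both called 1 of the 10 genes. It called 0 without the experiment term, where Ptgs2 had an edgeR adjusted p of 0.143, and 8 when the mean of both effects was tested in the fit with the interaction. Of all 14418 genes these settings called 208, 4 and 4811, against 1027. For the wider pathway the fit of both called 6 genes with DESeq2 (2492 of all genes), 1 with upper-quartile scaling, 0 at 0.01, 0 without the experiment term and 8 with the mean of both effects. Experiment 2 called 0 of its genes at 0.01 and 13 in 1 fit of the 4 groups, and the difference called 9 at 0.01, where 234, 4899 and 3247 of all genes were called. Where the count was 0 in these fits, edgeR had 4 of the 10 genes and 4 of the wider pathway at an unadjusted p under 0.05 without the experiment term, and 5 and 13 of the wider pathway in the fit of both and in experiment 2. The cause of these changes was not tested.

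Upper-quartile scaling turned 2 values near 0 in experiment 2, Ptger4 to 0.040 and Hpgd to 0.012, and moved the median log2 fold change of all genes from 0.0067 to 0.059 in experiment 2 and from 0.014 to 0.113 in experiment 1. Other turns came from leaving out a library, all in values that missed the test. In experiment 2 Alox5 ran from -0.76 to 1.27, Lta4h from -0.052 to 0.20, Ptger4 from -0.28 to 0.21, Hpgd from -0.50 to 0.53 and Fpr2 from -0.75 to 0.89. In the fit of both Ptger2 ran from -0.19 to 1.23. The difference between experiments ran from -1.65 to 0.40 for Alox5, -0.021 to 0.16 for Hpgds, -0.19 to 0.031 for Lta4h, -0.26 to 0.17 for Tbxas1, -0.041 to 0.39 for Abcc1 and -0.066 to 0.72 for Ptgir. A lone library left in a group was assumed to vary like the other groups. With 2 libraries per genotype and experiment, a change that missed the test is not shown to be absent.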
